A study of Mus musculus with 5 samples.

Results

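The immediate early genes Fos, Jun, Junb, Egr1, Ier2, Ier3 and Dusp1 and the Myc family genes Myc, Mycn and Mycl were followed through an RNA immunoprecipitation (RIP) experiment in mouse embryonic stem cells. Members were chosen by gene symbol, not by signal: 9 probe sets carried the symbol in the platform's probe annotation, and 1 was taken as Mycl, whose older symbol is Mycl1. These 10 probe sets, 1 per gene, were among 34760 on the array. The arrays were compared through 19937 named genes, of which 11502 reached a mean log2 signal of 5.76, the median over probe sets, and are called kept genes here. Fos lay below that level on all 5 arrays, and the other 9 members were kept.

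Immediate early genes are transcribed within minutes of a growth factor or stress signal without new protein synthesis, and their mRNAs are destroyed quickly, in many cases through AU-rich elements in the 3′ untranslated region. Fos, Jun and Junb encode subunits of the AP-1 transcription factor, Egr1 a zinc finger transcription factor, Ier2 and Ier3 small regulatory proteins, and Dusp1 a phosphatase that switches off MAP kinases. Myc, Mycn and Mycl encode basic helix-loop-helix leucine zipper factors that bind DNA as dimers with MAX. In mouse embryonic stem cells grown with LIF, Myc is known for sustaining growth and self-renewal, and its mRNA is itself short-lived.

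All samples came from R1 embryonic stem cells, a male line of strain 129X1 x 129S1 taken from the inner cell mass, expanded without feeders in LIF and serum with no other treatment. The cells were G418-resistant clones that constitutively expressed either pCAGGS::FLAG:MKRN1, an N-terminally FLAG-tagged makorin protein made from a strong general promoter, or pCAGGS::FLAG:Ctrl, the FLAG construct alone. How many clones of each were used is not given in the sources used here. There were 5 groups of 1 array: the FLAG:MKRN1 lysate precipitated with anti-FLAG, the FLAG:Ctrl RIP (anti-FLAG), the IgG RIP from FLAG:MKRN1 lysate, the FLAG:MKRN1 input and the FLAG:Ctrl input, the last 2 being total RNA of each lysate saved before precipitation.

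Mkrn1 signal did not mark the construct. Its 1 probe set, which may not cover the construct, read 11.71 for the FLAG:MKRN1 input, against 11.80 for the FLAG:Ctrl input. The anti-FLAG precipitate of FLAG:MKRN1 lysate is therefore called the MKRN1-labelled RIP, and its directions rest on the label. The 8 stem cell markers examined were all kept, with Pou5f1 between 12.04 and 12.42 on every array. Of 7 fibroblast markers of feeder cells, 4 were kept: Thy1 lay between 8.25 and 9.88, Col1a1 between 6.70 and 6.88, Col1a2 between 6.37 and 6.76 and Col3a1 between 5.74 and 5.98. The other 3, Postn, Lum and Dcn, lay between 3.72 and 4.96. With 1 array per group there was no replicate error, no test was run, and no difference below has a replicate check. The differences between the 2 control RIPs had an SD of 0.243 over the kept genes and serve as a yardstick of size; differences of the MKRN1-labelled RIP from them had SDs of 0.571 and 0.550. Equal masses of RNA (10 ng) were used per sample according to the labels, so a signal reflects a share of the RNA recovered, not its amount.

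None of the 10 genes lay 2-fold from either control RIP in the MKRN1-labelled RIP, and the members instead split into several patterns. Junb, Egr1 and Mycl were above both control RIPs by 0.38 to 0.78 on the log2 scale. Jun and Myc were above the input of the same lysate, by 0.83 and 0.90. Fos, Ier2 and Mycn differed little anywhere. Myc carried the largest difference of the set, and it lay between the lysates: the FLAG:MKRN1 input was 1.25 below the FLAG:Ctrl input. Among kept genes, 1.62% exceeded 2-fold upward and 7.11% downward against the FLAG:Ctrl RIP, with 1.53% and 6.94% against the IgG RIP, so a count of 0 among 10 genes is near the background. Relative to input the count was also 0 in every RIP, where 2.47% of kept genes were higher and 5.51% lower for the MKRN1-labelled RIP, with 1.32% (FLAG:Ctrl RIP) and 1.78% (IgG RIP) past 2-fold either way. The split of the calls moved with the scaling. Against the FLAG:Ctrl RIP, 18.5% of calls were upward in the deposited values, 7.49% with arrays centred on all probe sets, 36.6% centred on the kept genes, 32.3% with quantile normalization and 37.1% with a level-dependent trend subtracted. Against the IgG RIP these shares were 18.1%, 7.44%, 31.8%, 31.1% and 34.0%. Relative to input they were 30.9%, 20.6%, 36.5%, 40.8% and 37.3%. The median of the kept genes against the FLAG:Ctrl RIP was -0.03 as deposited, -0.23 with the first centring and 0.14 with the second.

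**Figure D1:**
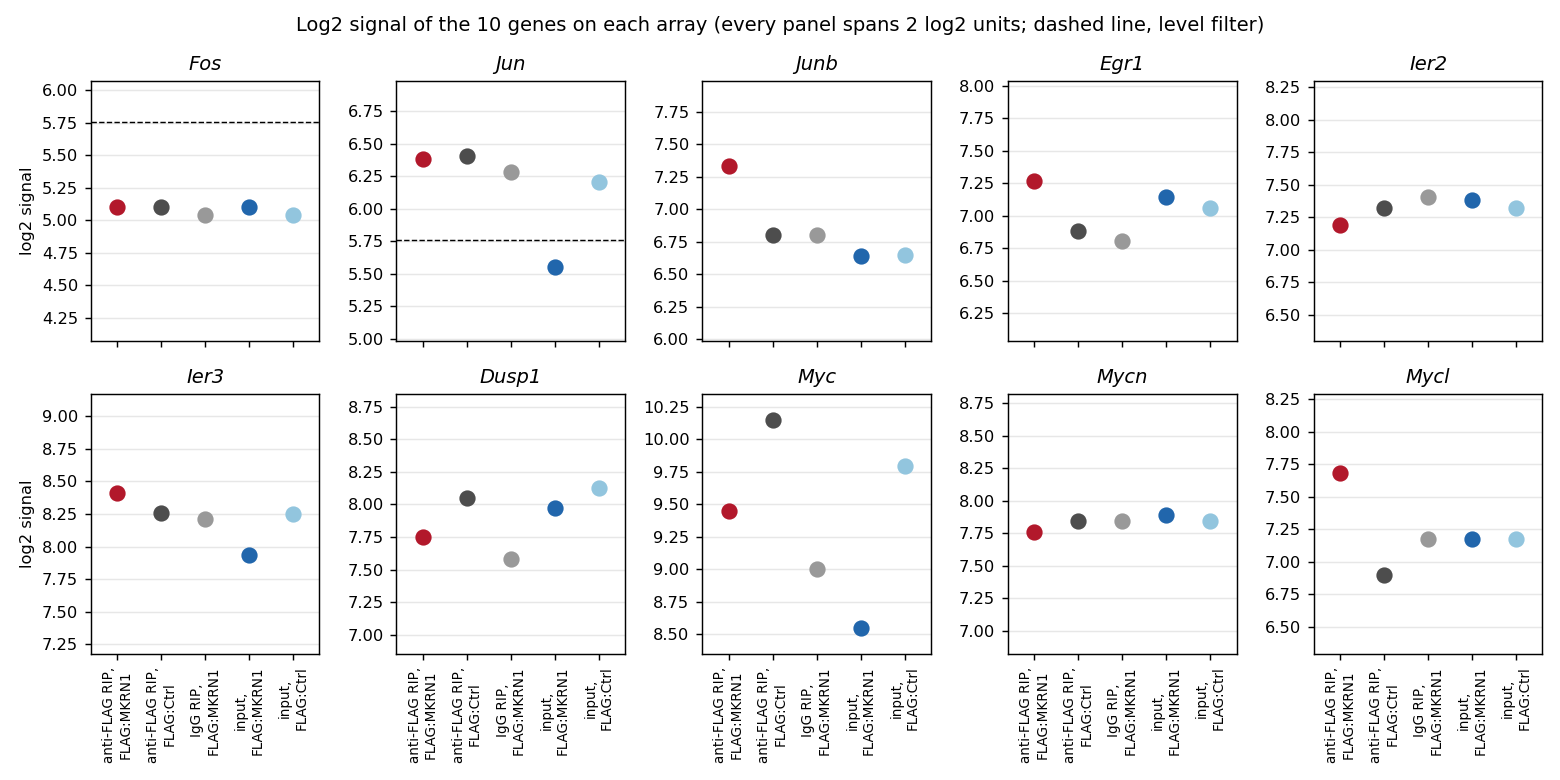
Log2 signal (vertical axis, 2 log2 units in each panel) of the 10 genes on the 5 arrays (horizontal axis), 1 point per array with no error bar because each group had 1 array; the dashed line is the level filter of 5.76. Junb, Egr1, Ier3 and Mycl are highest in the MKRN1-labelled RIP, while Myc is highest in the FLAG:Ctrl RIP and lowest in the FLAG:MKRN1 input.

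Among the AP-1 genes, Fos gave a log2 signal of 5.10 in the MKRN1-labelled RIP, 5.10 in the FLAG:Ctrl RIP, 5.04 in the IgG RIP, 5.10 in FLAG:MKRN1 input and 5.04 in FLAG:Ctrl input. All 5 arrays thus lay within 0.07 of each other and under the level filter, so the array gave no usable contrast for Fos. Jun gave 6.38 in the MKRN1-labelled RIP, 6.41 in the FLAG:Ctrl RIP, 6.28 in the IgG RIP, 5.55 in FLAG:MKRN1 input and 6.21 in FLAG:Ctrl input. The 3 RIPs of Jun lay close together and 1 array, the FLAG:MKRN1 input, stood below the rest and under the level filter.

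Relative to that low input array, Jun was 0.83 above input in the MKRN1-labelled RIP and 0.73 above the same input in the IgG RIP, against 0.20 in the FLAG:Ctrl RIP relative to its own input. The first of these was reached or passed by 4.18% of kept genes and the second by 3.99%. The IgG RIP, which was made without anti-FLAG antibody, thus lay nearly as far above this input as the MKRN1-labelled RIP did. Against the control RIPs themselves Jun differed by -0.03 and 0.10, both within the yardstick and both of changing sign over the 5 scalings. With values raised to the level filter, the Jun difference between the inputs was -0.45 instead of -0.65.

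Junb was the AP-1 gene with a difference from both control RIPs. It gave 7.33 in the MKRN1-labelled RIP, 6.81 in the FLAG:Ctrl RIP, 6.81 in the IgG RIP, 6.64 in FLAG:MKRN1 input and 6.65 in FLAG:Ctrl input. The MKRN1-labelled RIP was the 1 high array, and the 2 control RIPs had equal values. The difference was 0.52 from each control RIP (1.44-fold), with a range over the scalings of 0.32 to 0.69 (FLAG:Ctrl RIP) and 0.35 to 0.67 (IgG RIP). Of the kept genes, 8.63% and 8.15% lay at least as high. Relative to input Junb was 0.69 higher in the MKRN1-labelled RIP, 0.16 in the FLAG:Ctrl RIP and 0.16 in the IgG RIP.

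Egr1 gave 7.26 in the MKRN1-labelled RIP, 6.88 in the FLAG:Ctrl RIP, 6.81 in the IgG RIP, 7.14 in FLAG:MKRN1 input and 7.06 in FLAG:Ctrl input. Its pattern differed from that of Junb in that both control RIPs lay under the inputs, by -0.17 and -0.34, while the MKRN1-labelled RIP lay 0.12 above its input. The differences of 0.38 and 0.46 from the control RIPs kept their sign over all 5 scalings, at 0.18 to 0.54 and 0.28 to 0.60.

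The small regulators moved less. Ier3, which encodes a regulator of apoptosis and survival signalling, gave 8.41 in the MKRN1-labelled RIP, 8.26 in the FLAG:Ctrl RIP, 8.21 in the IgG RIP, 7.94 in FLAG:MKRN1 input and 8.25 in FLAG:Ctrl input. As with Jun, the FLAG:MKRN1 input was the low array and the 3 RIPs lay together; the difference of 0.16 from the FLAG:Ctrl RIP was within the yardstick and turned to -0.05 when arrays were centred on all probe sets. Ier2, which encodes a nuclear regulator, gave 7.19 in the MKRN1-labelled RIP, 7.32 in the FLAG:Ctrl RIP, 7.40 in the IgG RIP, 7.38 in FLAG:MKRN1 input and 7.32 in FLAG:Ctrl input. The MKRN1-labelled RIP was lowest, but by -0.13 and -0.21 only, which is under the yardstick, and the first of these turned to 0.03 with arrays centred on the kept genes.

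Dusp1 gave 7.75 in the MKRN1-labelled RIP, 8.05 in the FLAG:Ctrl RIP, 7.58 in the IgG RIP, 7.97 in FLAG:MKRN1 input and 8.12 in FLAG:Ctrl input. Both arrays of FLAG:Ctrl lysate were higher than the 3 arrays of FLAG:MKRN1 lysate. The MKRN1-labelled RIP was 0.30 below the FLAG:Ctrl RIP and 0.17 above the IgG RIP, so its place between the control RIPs gave no single direction. With arrays centred on all probe sets the second difference was -0.01. The IgG RIP was -0.47 from the FLAG:Ctrl RIP, and 2.65% of kept genes lay as low or lower.

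Promoter sequence is shown because the inputs measure steady-state RNA, to which transcription contributes. Fos, Jun and Dusp1 were picked because their windows held matches to the letters searched. RefSeq promoters (assembly GRCm38.p6, 250 bases before to 50 after the start site) were found for 7 of the 10 genes. The letters TGACNTCA (the cyclic AMP and AP-1 type element) and TGACGT (the core of the cyclic AMP response element) were searched on both strands; a TGACGTCA match contains both. Capitals mark these matches.
Fos (chr12:85473804-85473849, plus strand): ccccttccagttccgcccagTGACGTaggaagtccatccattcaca
Jun (chr4:95052240-95052287, minus strand): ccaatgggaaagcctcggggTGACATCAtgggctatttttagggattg
Dusp1 (chr17:26508588-26508683, minus strand): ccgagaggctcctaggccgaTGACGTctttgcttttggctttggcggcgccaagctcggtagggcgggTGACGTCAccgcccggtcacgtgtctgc

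Counted from the start site, matches began at position -66 in Fos, -45 in Jun, and -191 and -143 in Dusp1. Among the member windows, TGACNTCA was in those of Jun and Dusp1 and TGACGT in those of Fos and Dusp1. The windows of Junb, Ier3, Mycn and Mycl held neither. Of 32851 RefSeq promoter windows of the same length, 8.83% held TGACNTCA and 7.51% held TGACGT. The CArG box, the site of serum response factor, was in none of the 7 member windows and in 1.63% of all windows. Myc, Egr1 and Ier2 had no window here, and the serum response element known in Fos lies farther upstream than the window reaches, so nothing is read from this count. The E-box CACGTG, the site bound by MYC with MAX, was in the Dusp1 window and in 7.15% of all. A match is a description of the letters and not of use of the site.

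The Myc family held the widest and one of the flattest patterns. Myc gave 9.45 in the MKRN1-labelled RIP, 10.15 in the FLAG:Ctrl RIP, 9.0 in the IgG RIP, 8.55 in FLAG:MKRN1 input and 9.80 in FLAG:Ctrl input. Both arrays of FLAG:Ctrl lysate were higher than all 3 arrays of FLAG:MKRN1 lysate, a spread of 1.60 over the 5 arrays. Jun followed with a spread of 0.85.

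Between the inputs, Myc was 1.25 lower in FLAG:MKRN1 lysate on the log2 scale, 2.37-fold below the FLAG:Ctrl input. It was the 1 member of 10 past 2-fold, where 0.791% of kept genes were at least 2-fold lower and 0.878% higher, and 0.322% of kept genes lay as low or lower. Jun followed at -0.65, Ier3 at -0.31 and Dusp1 at -0.15, while Fos, Junb, Egr1, Ier2, Mycn and Mycl lay between -0.00 and 0.08. The Myc difference was -1.26 to -1.22 over the scalings. Whether fewer cells with high Myc or less Myc RNA per cell lies behind a lower bulk signal cannot be told apart, and clone and construct cannot be told apart either.

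The control RIPs, which share no array with the inputs, repeated that lysate difference for Myc. The IgG RIP from FLAG:MKRN1 lysate was -1.15 from the FLAG:Ctrl RIP (anti-FLAG), where 0.174% of kept genes were at least 2-fold lower. Antibody and lysate differ together in that pair. Only 10 kept genes, 0.0869%, were at least 2-fold lower in FLAG:MKRN1 lysate in both pairs of arrays, and Myc was the only member among them. Klf4, a pluripotency factor that also belongs to the immediate early genes, was another, at -1.17 between the inputs and -1.02 between the control RIPs. The other 8, named here after their values were seen, were Bmp4, Calml4, Dab2, Nup62cl, S100g, Sparc, Timm21 and Zfp941. Jun did not repeat its input difference in the control RIPs, where it was -0.13, and neither did Ier3, at -0.04, whereas Dusp1 was lower there (-0.47) than between the inputs (-0.15).

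Over all kept genes the 2 lysate differences had a Pearson's r of 0.404 and a Spearman's rho of 0.313, given as a description across 11502 genes that share 4 arrays and are not independent replicates. Of the 91 genes at least 2-fold lower in the FLAG:MKRN1 input, 73.6% lay below 0 between the control RIPs, against 44.0% of all kept genes. Dab2, 1 of the 4 primitive endoderm markers examined, was 6.48 in the FLAG:MKRN1 input, against 8.23 in the FLAG:Ctrl input. Of the other 3, Sox17 was 4.81 against 5.03, Gata4 6.32 against 6.28 and Gata6 5.66 against 5.69 in the same order of lysates. The list's summed log2 signal was 23.3 in FLAG:MKRN1 and 25.2 in FLAG:Ctrl input. Single markers of other cell types, named after their values were seen, also differed between the inputs. Pax6, a neural marker, was 7.57 in FLAG:MKRN1 against 6.41 in FLAG:Ctrl input and Thy1 8.89 against 9.88. The mesoderm marker Mixl1 was 5.39, under the level filter, against 6.10. Other markers of the same lists moved less, not at all or the other way. Sox1 was 6.40 in both inputs, Nes 5.47 against 5.17 and Eomes 5.91 against 6.12. Among fibroblast markers Col1a1 was 6.78 against 6.88, Col1a2 6.42 against 6.45 and Col3a1 5.74 against 5.81. Postn was 4.18 in both, Lum 3.79 against 3.75 and Dcn 4.72 against 4.61. The part of any of these in the Myc difference was not tested.

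**Figure D2:**
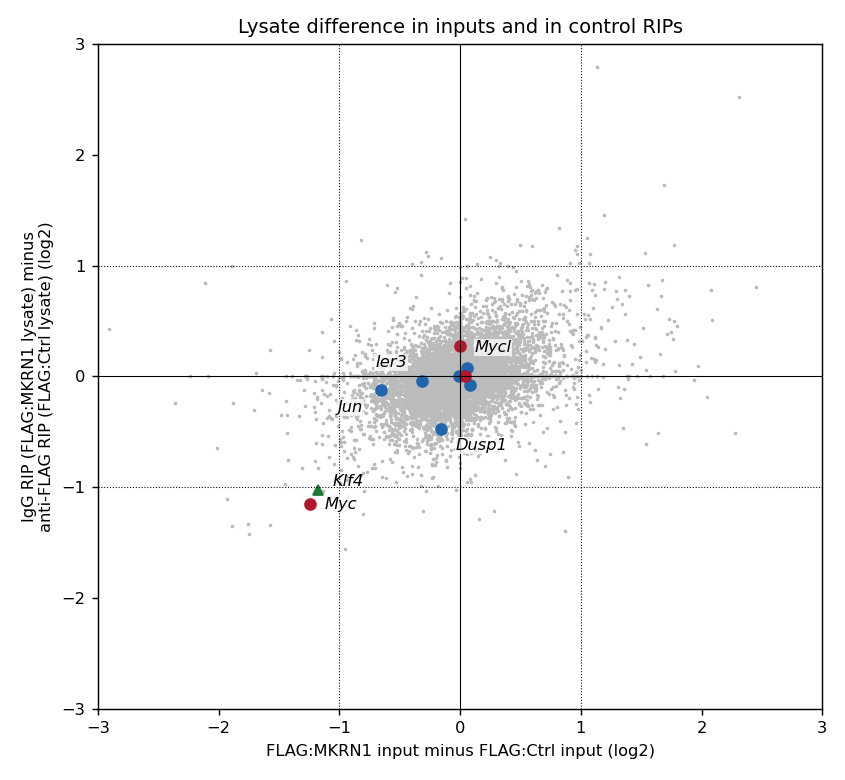
Log2 difference of the FLAG:MKRN1 from the FLAG:Ctrl input (horizontal axis) against the IgG RIP (FLAG:MKRN1 lysate) minus the FLAG:Ctrl RIP (vertical axis), with kept genes in grey, kept members as red (Myc family) and blue points, Klf4 as a green triangle and 2-fold as dotted lines; 5 genes lie outside the axes. Myc and Klf4 sit in the lower left corner at more than 2-fold in both, while the unlabelled members Junb, Egr1, Ier2 and Mycn lie near the origin.

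The place of Myc in the MKRN1-labelled RIP depended on what it was set against. It was 0.70 below the FLAG:Ctrl RIP and 0.45 above the IgG RIP of the same lysate. After subtraction of the matching input from each RIP, Myc was 0.54 above the FLAG:Ctrl RIP in place of 0.70 below it. Of the kept genes, 13.7% changed sign with this step, in either direction. The same step put Jun at 0.63 in place of -0.03 and Ier3 at 0.47 in place of 0.16, and left Junb at 0.53 and Mycl at 0.78. The shifts of Myc, Jun and Ier3 rest on the FLAG:MKRN1 input, the lowest array for each. For Jun that array lay under the level filter.

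Relative to input, Myc was 0.90 higher in the MKRN1-labelled RIP (1.87-fold), 0.36 higher in the FLAG:Ctrl RIP and 0.45 higher in the IgG RIP. Myc was above its input in all 3 precipitations, as were Jun, Junb and Ier3 of the 9 kept members, and as were 20.3% of kept genes. Ier3 was only 0.006 above input in the FLAG:Ctrl RIP, and that difference ran from -0.09 to 0.09 over the scalings. In the MKRN1-labelled RIP 3.31% of kept genes lay as far above input as Myc, and 2.47% lay at least 2-fold above. The Myc value passed 2-fold after quantile normalization (1.09) and with the level-dependent trend subtracted (1.06).

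Mycl was the member farthest above the FLAG:Ctrl RIP. It gave 7.68 in the MKRN1-labelled RIP, 6.90 in the FLAG:Ctrl RIP and 7.17 in the IgG RIP, with 7.17 in FLAG:MKRN1 input and 7.17 in FLAG:Ctrl input. The IgG RIP and both inputs had equal values within 1e-06, so the MKRN1-labelled RIP stood 0.51 above them and the FLAG:Ctrl RIP 0.27 below. The difference of 0.78 from the FLAG:Ctrl RIP (1.72-fold, reached by 3.17% of kept genes) was 0.58 to 0.95 over the scalings, and that of 0.51 from the IgG RIP was 0.33 to 0.65. Mycn gave 7.76 in the MKRN1-labelled RIP, 7.85 in each control RIP, 7.89 in FLAG:MKRN1 input and 7.85 in FLAG:Ctrl input. It spanned 0.13 in all, and its differences of -0.08 from the control RIPs changed sign with the scaling.

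Equal values were common in the deposited table, at 6.77% to 19.2% of kept genes for a given pair of arrays, and among the members Fos, Mycn and Mycl each had the same value on 3 arrays. The differences of 0 among these genes rest on such equal values.

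**Figure D3:**
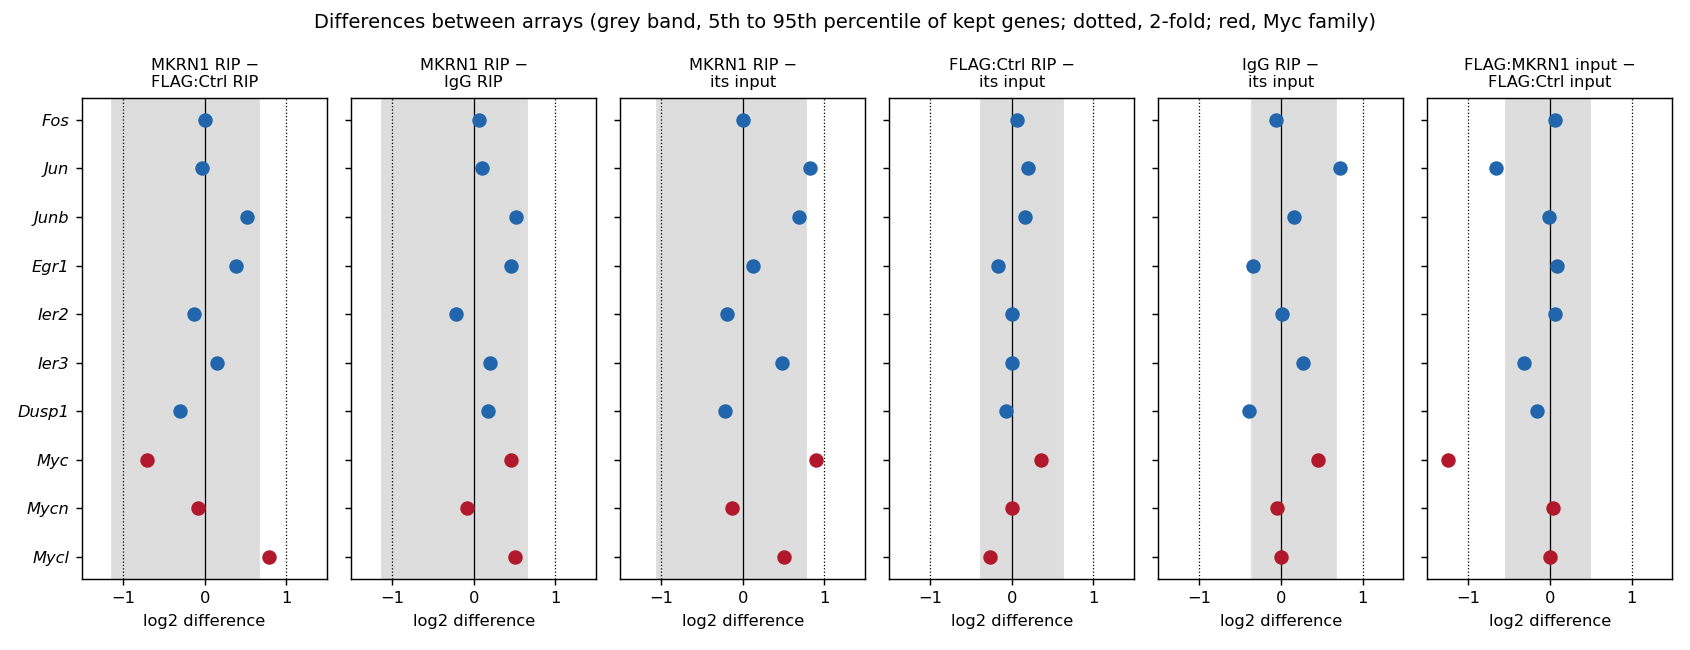
Log2 difference (horizontal axis) of each of the 10 genes (rows) in 6 comparisons, 1 point per gene, with no error bar since each group had 1 array; the grey band runs from the 5th to the 95th percentile of the kept genes and dotted lines mark 2-fold. The only point past 2-fold is Myc between the inputs, at -1.25.

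Over the 10 members, 4 were above, 5 below and 1 equal to the FLAG:Ctrl RIP in the MKRN1-labelled RIP, with a median of -0.01 against -0.03 for all kept genes, 39.9% of which lay above 0. The members' median moved with the scaling: it was -0.22 with 3 above and 7 below when arrays were centred on all probe sets, and 0.15 with 8 above and 2 below when they were centred on the kept genes. Against the IgG RIP 8 were above and 2 below, with a median of 0.19 against -0.00, where 41.2% of kept genes lay above 0. With arrays centred on all probe sets this became 5 above and 5 below with a median of 0.01, and with the kept genes as the centre 9 above and 1 below with a median of 0.33. Both comparisons use the same MKRN1-labelled array. Both also count Fos, which was not kept, as equal to the FLAG:Ctrl RIP and 0.06 above the IgG RIP. Over the kept members the deposited medians were -0.03 and 0.20. Of the 9 kept members, 4 (Junb, Egr1, Ier3 and Mycl) lay above both control RIPs and were highest of the 5 arrays there, as 34.6% and 32.7% of kept genes did, and 2 (Ier2 and Mycn) lay below both. Junb, Egr1 and Mycl stayed above both under all 5 scalings, Ier3 under 4 of them, and none of the 9 lay below both with arrays centred on the kept genes. Relative to input the medians of all 10 were 0.30 in the MKRN1-labelled RIP, 0.00 in the FLAG:Ctrl RIP and 0.01 in the IgG RIP. Over the kept members they were 0.48, 0.00 and 0.02, beside 0.00, 0.01 and 0.00 for all kept genes. At 1.5-fold, 3 members (Jun, Junb and Myc) lay above input in the MKRN1-labelled RIP, where 9.29% of kept genes did.

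The Myc pattern over the 5 arrays was most like those of Elovl6, Igsf21 and Itpk1, the 3 kept genes with the smallest Euclidean distances (0.348, 0.365 and 0.371) after each gene's own mean was subtracted. The median distance of kept genes from Myc was 1.31. Elovl6, which encodes a fatty acid elongase, was -1.20 between the inputs and 0.72 above input in the MKRN1-labelled RIP. Igsf21 and Itpk1, which encode an immunoglobulin superfamily protein and an inositol phosphate kinase, were -1.18 and -0.94 between the inputs.

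Other immediate early genes were taken as 2 lists. Among transcription factors 13 of 18 were kept, and their medians were 0.19 (FLAG:Ctrl RIP) and 0.23 (IgG RIP), with 9 and 7 of 13 above 0. The first median turned to -0.02 with arrays centred on all probe sets. None was at least 2-fold from both control RIPs, which 1.09% of kept genes were upward and 5.36% downward. Jund, the third Jun gene, gave 7.96 in the MKRN1-labelled RIP and 7.46 on each of the other 4 arrays, a difference of 0.50 from both control RIPs that is close to that of Junb. Csrnp1, which encodes a cysteine- and serine-rich nuclear protein, was 0.62 above the FLAG:Ctrl RIP and 0.45 above the IgG RIP. The lowest were Klf4, at -1.56 and -0.54, and the orphan nuclear receptor gene Nr4a1, at -0.89 and -0.54.

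Of the other immediate early regulators and secreted products, 27 of 28 were kept, with medians of 0.00 and 0.09, which were -0.20 and -0.08 with arrays centred on all probe sets. The highest were Dusp5, a phosphatase gene for ERK, at 0.57 and 0.70, and the kinase gene Pim3, at 0.51 against each control RIP. Gadd45b, a stress and DNA damage response gene, was the 1 gene of the list at least 2-fold lower than both control RIPs and lower than input, at -1.45 and -1.15. Its input was low too, at 6.64 in FLAG:MKRN1 against 8.35 in FLAG:Ctrl lysate. The MKRN1-labelled RIP of Gadd45b was -0.31 from that input, and the IgG RIP was 0.84 above it. With the matching input subtracted from each RIP, the difference from the FLAG:Ctrl RIP was 0.25 in place of -1.45. The kinase gene Plk2 differed by -1.09 and -0.90. Between the inputs 2 of these 27 genes were at least 2-fold lower and none higher, where 0.791% and 0.878% of kept genes were. The 2 genes were Gadd45b at -1.70 and Spry4, a feedback inhibitor gene of receptor tyrosine kinase signalling, at -1.08. Spry4 was named after its value was seen, and whether the list differs from other kept genes was not tested.

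The list of AU-rich element binding proteins also holds genes of other RNA-binding proteins, Pum2 and Igf2bp1 among them. Of its 13 genes 11 were measured. Their medians were -0.12 and -0.20, which turned to 0.04 and 0.02 with quantile normalization. Pum2, which encodes an RNA-binding translational repressor and is among these others, was the 1 gene called lower, at -1.10 and -1.05. Tial1 differed by -0.52 and -0.65. Hnrnpd, whose protein AUF1 promotes decay of AU-rich mRNAs, and Khsrp, whose protein acts likewise, differed by 0.05 and 0.01 from the FLAG:Ctrl RIP.

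The list of the MYC dimerisation network also holds genes of MYC-binding proteins outside it, Mycbp, Mycbp2 and Zbtb17. All 12 genes of the list were kept. The medians were 0.04 and 0.10, or -0.17 and -0.08 with arrays centred on all probe sets. Mycbp, which encodes a MYC-binding protein, was highest at 0.78 and 0.91, and it was 1.43 above input in the MKRN1-labelled RIP, against 0.31 in the FLAG:Ctrl RIP and 0.52 in the IgG RIP. Mnt, a repressor that competes with MYC for MAX, differed by 0.32 from each. The lowest were Mga, which encodes another MAX partner and was called lower at -1.49 against each control RIP, and Mycbp2, a ubiquitin ligase gene, at -0.78 and -0.62.

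Genes of MYC protein turnover lay lower as a group: all 9 measured of 10 listed were below both control RIPs, with medians of -0.66 and -0.57, where 44.4% of kept genes lay below both. With arrays centred on the kept genes, with quantile normalization and with the trend subtracted, 8 of 9 were below both, Gsk3a being the exception, and the medians stayed negative at -0.38 or lower from the FLAG:Ctrl RIP and -0.32 or lower from the IgG RIP. Huwe1, a ubiquitin ligase gene, was called lower at -1.06 and -1.20, and the deubiquitinase gene Usp28 differed by -0.96 and -0.86. At the other end Gsk3a and Usp36 differed by -0.27 and -0.31 from the FLAG:Ctrl RIP. Known MYC target genes (19 of 20 measured) had medians of -0.21 and -0.33 in the MKRN1-labelled RIP, negative under all 5 scalings, with 11 of 19 below both control RIPs. The nucleolar protein genes Fbl and Nop56 were lowest, at -0.999 and -0.91 against the FLAG:Ctrl RIP, though the other probe set of Fbl differed by 0.37. Odc1, which encodes ornithine decarboxylase, was 0.21 above that RIP by the probe set used and -0.58 by the other. Rcc1 was 0.20 and 0.92 above the 2 control RIPs. Its MKRN1-labelled RIP was -0.02 from input, while the IgG RIP was low, at -0.95 from the same input. Between the inputs none of the 19 targets was 2-fold apart, with a median of 0.03. Of kept genes, 0.791% were at least 2-fold lower there and 0.878% higher, so a count of 0 is near the background. Whether the targets follow Myc was not tested.

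Of the kinases and transcription factors that carry signals to immediate early genes, 15 of 21 were measured and their medians were -0.14 and -0.02, or 0.03 and 0.12 with arrays centred on the kept genes. Elk1, a partner of serum response factor, was 0.77 and 0.60 above the control RIPs, and Srf itself 0.16 and 0.48. The MKRN1-labelled RIP of Elk1 was only 0.11 above its input, and the IgG RIP was -0.50 from that input. With the matching input subtracted from each RIP, the difference of Elk1 from the FLAG:Ctrl RIP was 0.34 in place of 0.77. That of Srf was 0.64 in place of 0.16. The kinase genes Rps6ka3, at -1.18 and -1.44, and Mapk8, which encodes the Jun kinase JNK1, at -1.04 and -1.24, were called lower.

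**Figure D4:**
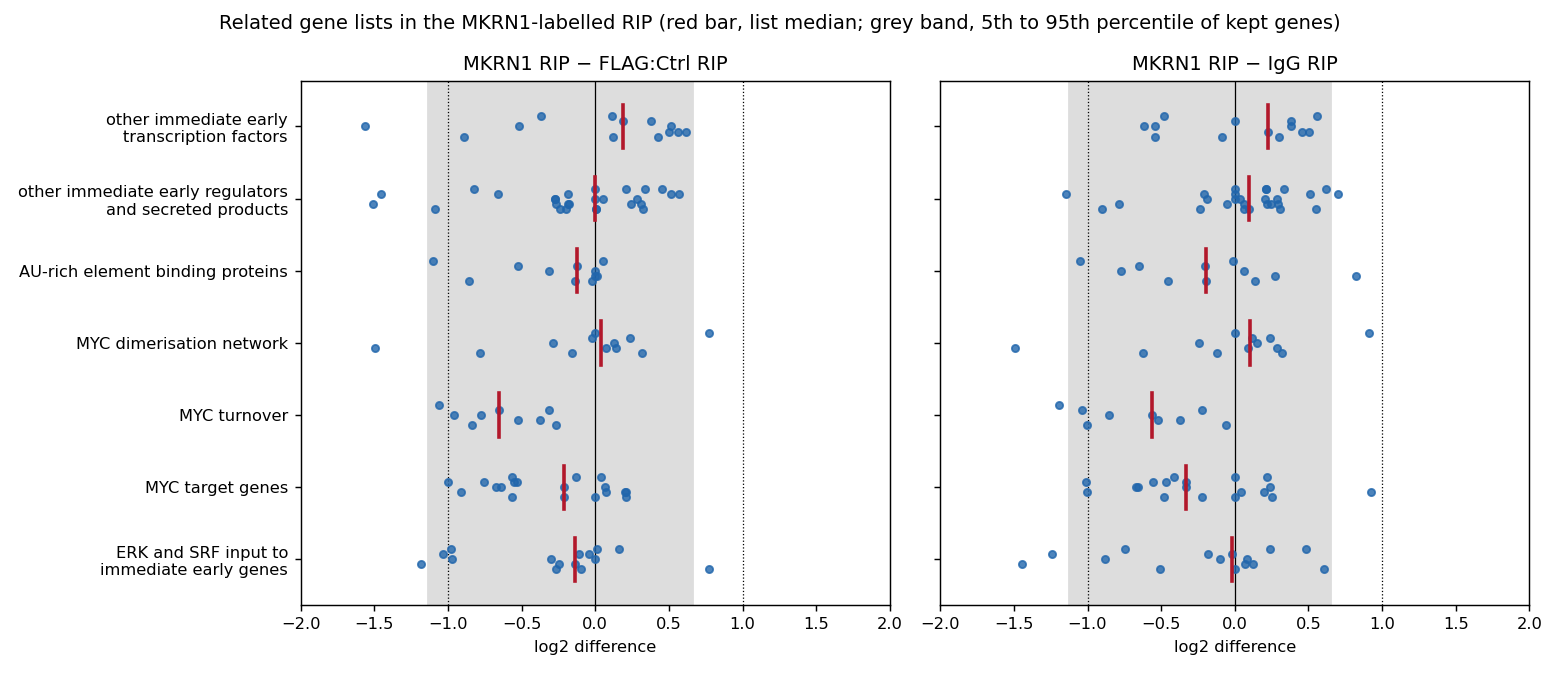
Log2 differences (horizontal axes) of the MKRN1-labelled RIP from the FLAG:Ctrl RIP (left) and the IgG RIP (right) for kept genes of 7 related lists (rows), 1 point per gene, with red bars at list medians, grey bands from the 5th to the 95th percentile of all kept genes and dotted lines at 2-fold. The list of MYC turnover genes lies wholly below 0 in both panels as deposited, with medians of -0.66 and -0.57, while Gsk3a crosses 0 under 3 of the other scalings.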

How the data were processed

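Signal was measured on 5 Affymetrix arrays, 1 per group, hybridised with biotin-labelled RIP or input RNA per the labels. The authors deposited 1 log2 value per probe set and array; the log2 scale was read from the range of values, while their background correction, summarisation and normalization were not given in the sources used here. Array medians ran from 5.68 to 5.88. Arrays carry no depth; precision is limited by their number. Of 34760 probe sets, 21640 had 1 gene symbol, 1321 several and 11799 none; identifiers of 21553 matched RefSeq (GRCm38.p6), which updated symbols. The probe set with the highest mean stood for a gene, and genes with a mean of at least 5.76 were kept. Differences of log2 values were counted at 2-fold, with no test. A gene was called when 2-fold from both control RIPs in 1 direction and on the same side of its input. Its score is the smaller of the 2 differences. Named genes were the members, the 2 highest and 2 lowest scores of each list, called list genes, 3 genes with patterns like Myc, and Mkrn1. Other genes are said to be named after their values were seen where a result turned on them. Spry4, Dab2, Pax6, Thy1 and Mixl1 belong to these. The members and lists were chosen with earlier results of these data known. Counting was tested on simulated data. Alternatives were other scalings, filters, thresholds and probe set rules. Python 3.11.15, pandas 2.3.3 and SciPy 1.17.1 were used.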

Additional observations from a re-analysis of the deposited data

Results flagged for a closer look

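For 2 members the anti-FLAG RIP lay on opposite sides of its input in the lysates. How many kept genes did the same was not counted, so the 2 cannot be read as a trait of the members. Mycl was 0.51 above input in FLAG:MKRN1 lysate and -0.27 from input in FLAG:Ctrl lysate. Egr1 was 0.12 above input in FLAG:MKRN1 lysate and -0.17 from input in FLAG:Ctrl lysate, both within the yardstick of 0.243. With 1 array per group these differences were not tested.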

How the results depend on the processing

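No paired analysis was possible because each group had 1 array. The settings tried gave 500 member differences over 10 genes and 6 comparisons. Of these, 493 moved by less than the yardstick of 0.243 and 7 by more. Dropping or tightening the level filter, or taking the median over probe sets, could not move them, as each member had 1 probe set. Nor could the same input, taken off both RIPs, move the IgG comparison. Signs changed in 7 of 60 with arrays centred on all probe sets and 8 of 60 centred on the kept genes. The counts were 7 after quantile normalization, 7 without the trend, and 2 of 20 with inputs taken off first. Only 1 difference was past 2-fold as deposited, Myc between the inputs, and it kept its sign. The number of members at least 2-fold apart in the MKRN1-labelled RIP relative to input was 0 as deposited, 1 (Myc) after quantile normalization and 1 with the trend with signal level removed. With a threshold of 1.5-fold it was 3, where 1068 of the 11502 kept genes were higher and 1640 lower. Against the FLAG:Ctrl RIP 2 members passed 1.5-fold, beside 778 kept genes higher and 2142 lower. For the IgG RIP relative to input 1 member passed, beside 824 and 196 kept genes. Between the inputs 2 members passed, beside 404 and 455. With a threshold of 4-fold the count of members between the inputs was 0, where it had been 1, beside 10 kept genes higher and 6 lower. Against the FLAG:Ctrl and IgG RIPs, Myc was -0.40 and 0.73 after quantile normalization and -0.36 and 0.78 without the trend; the cause was not tested. Jun, Ier3 and Myc moved with the inputs taken off first, as given above. Centring on the kept genes was added after seeing the data. Against the FLAG:Ctrl RIP, genes at least 2-fold higher and lower numbered 186 and 818 as deposited, 108 and 1334 with arrays centred on all probe sets, 306 and 529 centred on kept genes, 269 and 456 without the trend, and 87 and 662 when genes had to reach the 75th percentile of signal. Against the IgG RIP they were 176 and 798 as deposited, 96 and 1195 centred on all probe sets, 243 and 471 without the trend and 84 and 649 with the stricter filter. The stricter filter left 4 of the members. Signal near the level filter limits what Fos and Jun can show.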
